A study of Caenorhabditis elegans with 12 samples.

Results

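The data describe the response of wild type (WT, N2) Caenorhabditis elegans to 3 hrs of heat shock (HS) at 35°C, measured by total RNA sequencing across all annotated genes. The HS animals had spent 44 hrs at 20°C before the 3 hrs at 35°C, and the control (CTL) animals spent all 47 hrs at 20°C. Both groups were last larval stage (L4) animals of the same strain with no transgene or other treatment, and each library came from a population of whole worms. The members are the 6 WT libraries, 3 per temperature, out of 12 in the series, and the other 6 are from miR-85(n4117) animals, which share the temperatures and times. Of 16585 genes with enough counts to test, 15287 were protein-coding, out of 19901 annotated protein-coding genes.

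In animals, a rise in temperature unfolds proteins, and the transcription factor HSF-1 then activates genes for chaperones. These are ATP-driven folding machines of the HSP70 and HSP90 classes with their DnaJ and nucleotide-exchange partners, and small heat shock proteins that hold unfolding proteins in solution. The L4 stage ends with a molt, in which the epidermis secretes the adult cuticle, so that genes for collagens, matrix proteins and developmental timing are in motion at this age.

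Values per library are normalized counts, that is, read counts divided by the effective library size relative to the mean of the 12 libraries. A gene is called here when it is protein-coding, its mean normalized count in the 6 WT libraries is over 10, its log2 fold change (HS over CTL) is at least 1 in size and its p-value from edgeR's quasi-likelihood test is under 0.05 after Benjamini-Hochberg adjustment across every gene that was tested. The words rose and fell are used only of called genes or of class sums whose libraries do not overlap. Folds of genes with 3 counts or fewer in every CTL library are given as lower bounds against a floor of 3 counts per library.

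Counts on protein-coding genes were between 18417940 and 21240810 in the HS libraries and between 9505142 and 23555892 in the CTL libraries. CTL replicate 3 stood apart in its ribosomal RNA, with 65.5% of its counts on rRNA genes, against 20.3% to 32.9% in the other 5 WT libraries. HS replicate 2 stood apart in another way, since on the first principal component (67.5% of the variance) it lay at 96.3 while HS replicates 1 and 3 lay at 46.8 and 64.1 and the CTL libraries between -70.7 and -66.0. It also had the most counts on adult markers (col-19, a collagen of the adult cuticle, and yolk genes), with 42547, 164120 and 61241 summed normalized counts in HS replicates 1, 2 and 3 against 10711, 10475 and 13606 in CTL replicates 1, 2 and 3. Muscle, pharynx, germline and sperm markers held no called gene, and ges-1 of the intestine (log2 fold change -1.01) and rgef-1 of neurons (-1.08) were each the 1 called member of their list. In whole animals, fewer cells of a type and less RNA per cell cannot be told apart. Replicate 1 of each temperature was sequenced in lane 3 and replicates 2 and 3 in lane 8, so the lanes were balanced over the temperatures.

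HS raised and lowered similar numbers of protein-coding genes, but the rises were far larger than the falls. Of 15287 genes tested, 898 were higher (5.87%) and 802 lower (5.25%), or 11.1% in either direction. Over genes of all classes 7.26% were higher and 4.92% lower. Without CTL replicate 2 the protein-coding genes higher numbered 548, and without HS replicate 2 those lower numbered 493. The median log2 fold change was 2.25 among the genes that rose (quartiles 1.46 and 3.53) and -1.39 among those that fell (-1.72 and -1.16). As many as 304 genes rose by 8-fold or more and 61 by 64-fold or more, whereas 5 genes fell by 8-fold or more and none by 16-fold. These are fitted folds, which for genes near 0 in CTL depend on the prior count. The HS and CTL libraries did not overlap in 870 of the 898 genes called higher and in 784 of the 802 called lower; among all genes tested the HS libraries lay wholly above CTL in 19.8% and wholly below in 19.5%. Genes that rose had a median of 234 normalized counts in HS and 35.0 in CTL, and those that fell a median of 99.99 in HS and 284 in CTL. In 106 of the 898 genes (11.8%) every CTL library held 3 counts or fewer, and 17 of these had 0 counts in all 3. Within lane 3, 892 of the 898 genes higher and all 802 lower had the same direction, and within lane 8 all 898 and all 802. The genes were called from these same libraries, so this agreement is largely fixed in advance. Only 1 gene that fell, ins-9, was at 3 counts or fewer in every HS library.

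**Figure D1:**
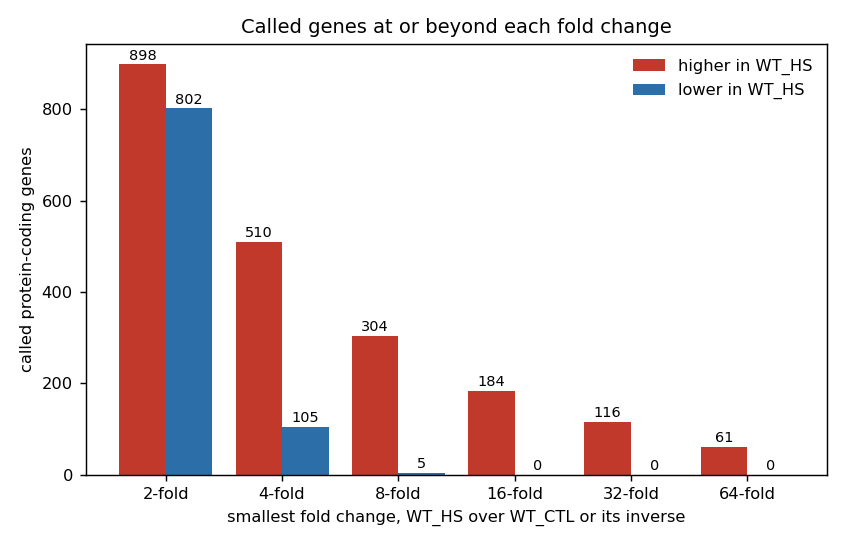
Number of called protein-coding genes (y axis) at or beyond each fold change (x axis, 2-fold to 64-fold) between WT_HS and WT_CTL, with genes higher in WT_HS in red and genes lower in blue. Of 898 genes higher, 61 reach 64-fold, while of 802 genes lower 5 reach 8-fold and none 16-fold.

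The inducible HSP70 genes and hsp-16.2 and hsp-16.41 were among the 10 largest rises. hsp-70 (I:9320325-9322519, WBcel235, minus strand), an HSP70 that is nearly silent without stress, had 159840, 122550 and 175790 normalized counts in HS, against 239, 105 and 72.9 in CTL. Its log2 fold change was 10.08 (SE 0.80, adjusted p = 2.06e-05), and the lowest HS library lay far above the highest CTL library. F44E5.4 and F44E5.5, a divergent pair of HSP70 genes on chromosome II, followed closely. F44E5.4 had 24354, 14674 and 24482 in HS, against 33.9, 17.3 and 0 in CTL (log2 fold change 10.09, SE 0.96), and F44E5.5 had 27910, 18746 and 29164 in HS, against 50.4, 18.1 and 2.35 in CTL (9.92, SE 0.90). These HSP70 copies are similar enough to share reads, so how their counts divide between them is uncertain.

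Of the small heat shock proteins of the hsp-16 family, the neighbours hsp-16.2 and hsp-16.41 dominated. hsp-16.2 (V:1804334-1804957, minus strand) had 60596, 51312 and 61292 in HS, against 37.8, 11.5 and 9.41 in CTL (log2 fold change 11.44, SE 1.02). hsp-16.41 (V:1805178-1805875, plus strand) had 75091, 73111 and 79033 in HS, against 39.8, 20.6 and 16.47 in CTL (11.47, SE 0.97). The 3 HS libraries of hsp-16.41 lay close together. Of 5 hsp-16 identifiers tested 4 were called higher. The duplicated pair hsp-16.1 and hsp-16.48 was counted at far lower levels. The 2 identifiers of hsp-16.48 had 48, 21.5 and 40 and 89.1, 29.9 and 103 in HS, with 0 in every CTL library (at least 8.80-fold and 17.9-fold higher). The 2 identifiers of hsp-16.1 had 4.78 to 13 in HS and 0 in CTL, and neither was called. Because each of these genes has a near-identical copy, reads that match both copies may be missing from the counts, and their levels are uncertain. Per kilobase of exon, hsp-16.41 (118350 normalized counts per kb) and hsp-16.2 (99885) stood above hsp-70 (74247) in HS. Together the HSP70 and hsp-16 genes took 1.65%, 1.25% and 1.65% of protein-coding counts in HS replicates 1, 2 and 3, against 0.00209%, 0.000892% and 0.000452% in CTL replicates 1, 2 and 3.

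**Figure D2:**
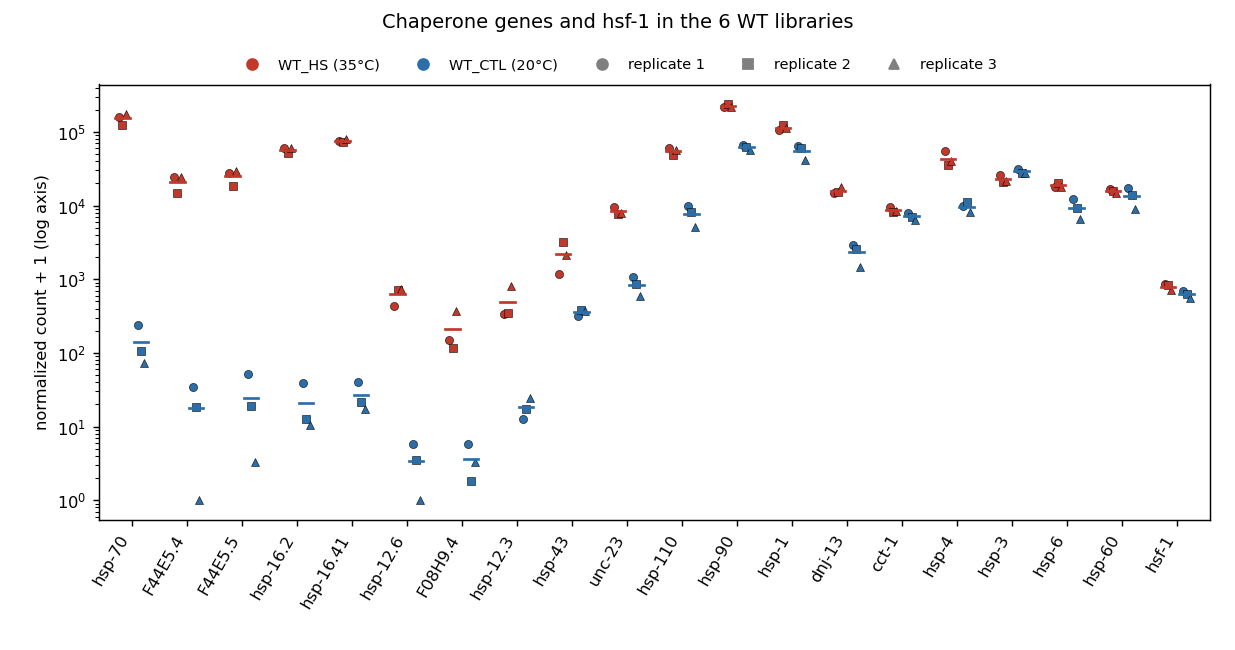
Normalized counts plus 1 on a log axis for 19 chaperone genes and hsf-1 in each WT library, WT_HS in red left of WT_CTL in blue, with marker shape for the replicate and bars for the group means. The inducible genes hsp-70, F44E5.4, F44E5.5, hsp-16.2 and hsp-16.41 lie at 14674 or more in every WT_HS library and at 239 or fewer in every WT_CTL library, while cct-1, hsp-3, hsp-60 and hsf-1 stay near their WT_CTL levels.

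Other small heat shock proteins rose in 5 of 10 cases (50%, against 5.87% of all protein-coding genes tested), by less. hsp-12.6 had 430, 720 and 746 in HS, against 4.85, 2.47 and 0 in CTL (log2 fold change 7.69, SE 0.56), F08H9.4 reached 6.26 and hsp-12.3 4.92. hsp-43, which at 20°C already had 321, 384 and 372 in CTL, had 1180, 3237 and 2121 in HS (2.60, SE 0.41, adjusted p = 0.0017). hsp-17 rose by 1.05, and hsp-25 (0.57) was below the limit of 1. Members that are high only upon HS pass the filter on low counts more readily, and among the 8 with a mean over 10 in CTL, 3 rose and none fell.

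Some chaperones that are abundant at 20°C, and some partners of HSP70, rose further. hsp-90 had 215500, 237520 and 219810 in HS, against 67271, 62946 and 56407 in CTL (log2 fold change 1.85, SE 0.15). It showed the largest gain in counts of any called gene, ahead of hsp-70. hsp-110, whose product exchanges the nucleotide of HSP70, had 60952, 47983 and 56761 in HS, against 9760, 8133 and 5120 in CTL (2.85, SE 0.23). hsp-1, the constitutive HSP70, had 106610, 122610 and 112770 in HS, against 64067, 59721 and 41507 in CTL (1.05, SE 0.18). None of these overlapped between temperatures, but hsp-1, close to the limit, lost its call without HS replicate 2 or CTL replicate 3.

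Among cochaperones, unc-23, a BAG-domain partner of HSP70 needed in body wall muscle, had 9545, 7748 and 7984 in HS, against 1068, 860 and 588 in CTL (log2 fold change 3.33, SE 0.24), and bag-1, another BAG protein, rose by 1.6. In all, 5 of 14 cytosolic chaperones and cochaperones rose (35.7%, against 5.87% of all protein-coding genes tested) and none fell. The median of the 14 was 0.81, against 0.01 for all protein-coding genes tested. Of 29 DnaJ proteins, which deliver clients to HSP70, 2 rose (6.9%, near the 5.87% of all protein-coding genes tested). dnj-13, a DnaJ of the DNAJB1 type, had 14739, 15374 and 17635 in HS, against 2920, 2562 and 1471 in CTL (2.78, SE 0.23), while dnj-26 reached 1.08 and 0.74 without HS replicate 2, where it was not called, nor was it without CTL replicate 3. The other 27 were not called, and the median of the list was 0.09. No subunit of the chaperonin CCT or prefoldin was called among 14 with edgeR or with DESeq2, although 4 had unadjusted p-values under 0.05, such as cct-5 at 0.51 (SE 0.14).

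In the endoplasmic reticulum (ER), 3 of 16 genes rose (18.8%, against 5.87% of all protein-coding genes tested) and none fell. hsp-4, the ER HSP70 (BiP) that reports the unfolded protein response, had 54316, 35236 and 40306 in HS, against 9862, 11034 and 8168 in CTL (log2 fold change 2.16, SE 0.22). The sensor kinase gene pek-1 rose by 1.38 and xbp-1, the transcription factor of that response, by 1.33. The other ER members lay lower, with a list median of -0.36 and 12 of 16 members below 0; hsp-3, the other BiP gene, was at -0.34 (SE 0.15, adjusted p = 0.11). Mitochondrial chaperones held 1 call, hsp-6 (1.01, SE 0.22), with 18098, 20450 and 17926 in HS, against 12281, 9344 and 6504 in CTL. This call sat at the limit and was lost with DESeq2 and without HS replicate 2 or CTL replicate 3, while hsp-60 had 0.23.

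HSF-1 itself and its inhibitor were nearly level. hsf-1 had 857, 824 and 704 normalized counts in HS, against 690, 632 and 558 in CTL (log2 fold change 0.34, SE 0.13, adjusted p = 0.088), and hsb-1, which encodes an HSF-1 binding protein, had 0.11 (SE 0.13). daf-16, the FOXO factor of the insulin pathway, had -0.50 (adjusted p = 0.035), short of the limit of 1. Among 18 stress factors 1 rose and 1 fell (5.56% each, near the 5.87% and 5.25% of all protein-coding genes tested). cebp-1, a bZIP factor, had 839, 1119 and 655 in HS, against 135, 144 and 195 in CTL (2.47, SE 0.26), and egl-9, the oxygen-sensing prolyl hydroxylase, fell by 1.05 on the log2 scale. The stress factors that rose were 2 without HS replicate 1 or CTL replicate 3, and those that fell 0 without HS replicate 1 or CTL replicate 1 and 2 without HS replicate 3 or CTL replicate 2.

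Protein degradation moved in parts. aip-1, an arsenite-inducible protein that binds the proteasome, had 8476, 6618 and 5771 in HS, against 386, 327 and 318 in CTL (log2 fold change 4.34, SE 0.26). sqst-1, the p62 autophagy receptor, had 6724, 9937 and 8902 in HS, against 915, 898 and 2122 in CTL (2.70, SE 0.36). The 26S proteasome had no called subunit among 33 with edgeR or DESeq2, yet 28 of 33 lay below 0 (median -0.25). At an adjusted p under 0.05 and any fold, 12 subunits (36.4%) were below 0 and 1, rpn-3 (0.65), was above, against 9.94% and 10.9% of all protein-coding genes tested. Substrate adaptors of ubiquitin ligases rose in some cases. Of 139 F-box genes tested (fbxa, fbxb and fbxc, out of 322 annotated), 18 rose and 2 fell, and of the 112 with a mean over 10 in CTL 10 rose and 2 fell (8.93% higher, against 4.44% of all genes past the same limit). fbxa-48 had 214, 195 and 325 in HS, against 6.79, 9.88 and 16.47 in CTL (4.57). bath-34, of the MATH and BTB family of cullin adaptors, had 1363, 997 and 945 in HS, against 57.2, 62.6 and 51.8 in CTL (4.25, SE 0.20). In this family 6 of 54 tested members rose (11.1%, against 5.87% of all protein-coding genes tested). Of its 50 members with a mean over 10 in CTL, 4 rose (8%, against 4.44% of all genes past that limit). The count of F-box genes that rose fell to 11 without HS replicate 2 or without CTL replicate 2, and the 2 falls were 0 or 1 in every fit that left out 1 library other than HS replicate 1.

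Several genes outside the chaperone lists had rises of the same size. R11A5.3 (I:7862529-7863569) had 17407, 17349 and 15339 in HS, against 5.82, 4.12 and 2.35 in CTL, and its log2 fold change of 11.84 (SE 0.50, adjusted p = 2.34e-07) was the largest of the called protein-coding genes. C25F9.2 had 6308, 2622 and 4432 in HS, against 3.88, 0.824 and 0 in CTL (11.13, SE 0.72). ZC21.10 had 3024, 1696 and 2257 in HS, against 1.94, 2.47 and 0 in CTL, at least 561-fold higher. Y81B9A.1 was at least 339-fold higher. These genes were picked among calls whose libraries do not overlap, so their separation follows from the choice.

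By gain in counts rather than fold, nurf-1 came next after hsp-90 and hsp-70. This gene encodes subunits of the NURF chromatin remodeler and was picked out after its values had been seen, as were the other genes of this paragraph that are not chaperones. It had 128530, 70166 and 108970 normalized counts in HS, against 4303, 3958 and 4292 in CTL (log2 fold change 4.62, SE 0.31, adjusted p = 4.81e-06). Of the 20 genes with the largest gains, 7 were heat shock genes (hsp-90, hsp-70, hsp-16.41, hsp-1, hsp-16.2, hsp-110 and hsp-4) and 7 were cuticle collagens. The rest included ttll-12, of the tubulin tyrosine ligase-like family, with 36097, 27730 and 30939 in HS, against 1854, 1750 and 1391 in CTL (4.24), and lea-1, related to proteins that protect plants and animals from drying (2.01). Among the 10 largest losses in counts, npa-1, a lipid-binding polyprotein, had 20343, 11299 and 20745 in HS, against 39369, 37060 and 33883 in CTL (-1.07), and cpr-6, asp-2 and ctsa-2, which encode proteases, had -1.47, -1.24 and -1.96.

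Cuticle collagens, the structural proteins that the epidermis secretes, rose in a minority of cases. Of 140 col genes tested (156 annotated), 28 rose (20%) and none fell with edgeR, against 5.87% and 5.25% of all protein-coding genes tested. Of the 130 with a mean over 10 in CTL, 24 rose (18.5%, against 4.44% of all genes past that limit). At an unadjusted p under 0.05, 46 were above 0 and 3 below 0, and DESeq2 called 43 higher and 2 lower. Their share of protein-coding counts was 7.85%, 9.48% and 8.11% in HS replicates 1, 2 and 3, against 3.99%, 6.12% and 6.80% in CTL replicates 1, 2 and 3. The typical collagen barely moved, since the list median was 0.32 and only 85 of 140 lay above 0. Among the abundant members, col-124 had 61601, 171000 and 77499 in HS, against 8864, 14099 and 16710 in CTL (log2 fold change 2.97, SE 0.64), and col-139 had 42879, 151430 and 62184 in HS, against 7568, 12107 and 18131 in CTL (2.76, SE 0.77). HS replicate 2 was the highest in both. It was also far the highest in col-8, which had 857, 12678 and 1901 in HS, against 184, 45.3 and 65.9 in CTL (5.68, SE 1.75, adjusted p = 0.040), and its log2 fold change was 3.78 without HS replicate 2, where it was not called. The col-8 call was kept in 1 of 6 fits that left out 1 library, the fit without HS replicate 1. col-51 did not follow this pattern, with 259, 173 and 303 in HS, against 0, 4.12 and 9.41 in CTL (6.06, SE 0.78). The number of collagens that rose dropped to 9 without HS replicate 2, 16 without HS replicate 3, 5 without CTL replicate 1 and 6 without CTL replicate 2, and was 31 without HS replicate 1. The collagen count therefore rested on several libraries at once.

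Collagens that set body shape, and the genes of collagen processing, mostly lay below 0, with 1 fall called in each list. Of 20 body-shape collagens 2 rose (10%) and 1 fell (5%), against 5.87% and 5.25% of all protein-coding genes tested. Of the same 20, 18 lay below 0 (median -0.98). dpy-17 was the exception in size, with 1095, 1204 and 1113 in HS, against 40.7, 16.47 and 30.6 in CTL (log2 fold change 5.30, SE 0.51), a rise with little spread between libraries. bli-1, a collagen of the struts of the adult cuticle, fell to 2366, 1095 and 2346 in HS, against 15926, 3809 and 4803 in CTL (-2.08, SE 0.65), a call kept in 2 of 6 fits that left out 1 library. dpy-18, which encodes the prolyl hydroxylase that stabilizes collagen, had 2307, 703 and 2155 in HS, against 6479, 7839 and 5332 in CTL (-1.93, SE 0.44, adjusted p = 0.012). It was the 1 call among 12 genes of collagen processing and cross-linking (8.33% lower, against 5.25% of all protein-coding genes tested). Of these 12, 10 lay below 0, and 3 were called lower without HS replicate 1.

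Genes of the molt and of the apical matrix, the temporary coat under which a new cuticle forms, lay lower in HS. Of 33 tested, 30 had a log2 fold change below 0, and the median was -1.32. With edgeR 5 fell (15.2%, against 5.25% of all protein-coding genes tested) and none rose, and DESeq2 called 11 lower and 1 higher. Their summed normalized counts were 46169, 14281 and 33735 in HS, against 111520, 69220 and 65006 in CTL, so that the groups did not overlap. cut-2, a cuticlin, had 2368, 713 and 902 in HS, against 6128, 8929 and 5560 in CTL (-2.37, SE 0.55). let-653, a zona pellucida domain protein of the apical matrix, had 44.5, 22.7 and 58.9 in HS, against 249, 185 and 111 in CTL (-2.11, SE 0.45). Both calls held in all 6 fits that left out 1 library. noah-1 (-2.08, adjusted p = 0.061) and mlt-10 (-1.71, adjusted p = 0.15), both needed for molting, did not pass. The count of members that fell was 2 without HS replicate 2 or without CTL replicate 1, and 8 without HS replicate 1.

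Some regulators of developmental timing fell. Of 15, 4 fell with edgeR (26.7%, against 5.25% of all protein-coding genes tested) and none rose. DESeq2 also called 4 lower and none higher. In this list 10 lay below 0 and the median was -0.33. lin-29, the zinc-finger factor that triggers the larval-to-adult switch of the epidermis, had 128, 59.8 and 84.2 in HS, against 356, 231 and 275 in CTL (log2 fold change -1.66, SE 0.28, adjusted p = 0.0022), and it fell in each of 6 fits without 1 library. lin-42, the worm counterpart of the period gene, had 387, 135 and 299 in HS, against 1242, 487 and 1094 in CTL (-1.78), a call kept in 2 of those 6 fits. myrf-1, a membrane-bound transcription factor of the molting cycle, and hbl-1, the hunchback-like factor of the late larva, had -2.04 and -1.07. Without HS replicate 2 or without CTL replicate 1 the list held 1 fall in place of 4, and without CTL replicate 3 it held 2.

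**Figure D3:**
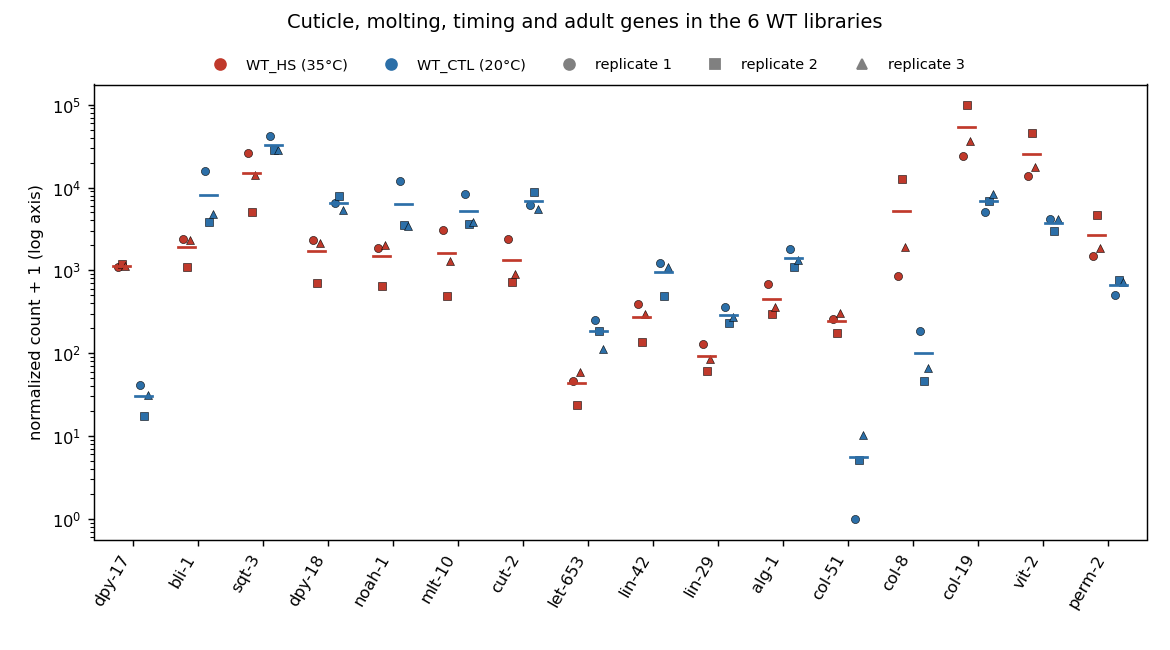
Normalized counts plus 1 on a log axis for 16 cuticle, molting, timing, Argonaute and adult genes in each WT library, WT_HS in red left of WT_CTL in blue, with marker shape for the replicate and bars for the group means. The square of WT_HS replicate 2 is the lowest of its group in dpy-18, let-653, lin-42 and lin-29 and the highest in col-8, col-19 and vit-2.

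The adult genes showed higher means with a wide spread. vit-2, a yolk protein gene, had 13678, 45817 and 17537 in HS, against 4208, 3012 and 4116 in CTL (log2 fold change 2.76, SE 1.29, adjusted p = 0.15). All 6 yolk genes were separated between temperatures and above 0 (median 1.78), but edgeR called none, with none at an unadjusted p under 0.05, and DESeq2 called none, while the fit of the 6 WT libraries alone called 5 higher. col-19 had 23826, 98618 and 36896 in HS, against 5004, 6941 and 8436 in CTL (2.97, adjusted p = 0.060). The markers of hypodermis and seam cells summed to 8977, 2020 and 7283 in HS, against 13483, 8075 and 13295 in CTL. In each of these the libraries of HS replicate 2 were the most extreme, and whether a difference in developmental age has a part in the cuticle, molting and adult values was not tested.

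Germline and sperm genes were mostly level. Of 50 germline and oocyte genes 2 rose (4%, near the 5.87% of all protein-coding genes tested) and none fell. The 2 were perm-2 (log2 fold change 1.99) and perm-4 (1.67), both of the layer around the egg. Each of these calls was kept in 2 of 6 fits that left out 1 library. Of 29 major sperm protein genes 1 fell (3.45%, near the 5.25% of all protein-coding genes tested) and none rose, with a median of 0.18. The gene that fell was msp-74 (-1.30). spe-36 was the exception, with 2745, 1253 and 2272 normalized counts in HS, against 34.9, 28 and 9.41 in CTL (6.32, SE 0.43, adjusted p = 6.5e-06). It encodes a sperm protein needed for fertilization. Summed germline markers were 12811, 17340 and 14302 in HS, against 13718, 12657 and 11248 in CTL, which overlap.

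Histone genes split. Of 43 his genes tested (72 annotated), 11 rose (25.6%) and 8 fell (18.6%), against 5.87% and 5.25% of all protein-coding genes tested. The median was -0.08. Of the 39 with a mean over 10 in CTL, 8 rose and 8 fell (20.5% each, against 4.44% and 5.59% past that limit). his-41 had 8493, 7079 and 6961 in HS, against 407, 333 and 379 in CTL (log2 fold change 4.33, SE 0.19, adjusted p = 2.3e-07), and his-38 had 2733, 4423 and 2678 in HS, against 198, 155 and 489 in CTL (3.57, SE 0.44). Both stood clear of their CTL libraries. Among those that fell, his-3 had 328, 390 and 334 in HS, against 1010, 794 and 2301 in CTL (-1.96, SE 0.45), with CTL replicate 3 the highest; his-3 was named after its values had been seen. Without CTL replicate 3 the list held 15 rises and 2 falls, and the falls were 4 without HS replicate 1 and 3 without HS replicate 3. Many histone genes are near-identical copies that can share reads, so values of single genes are uncertain.

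Ribosomal proteins, mitochondrial ribosomal proteins, aminoacyl-tRNA synthetases and the nuclear respiratory chain, 229 genes together, had no call in either direction with edgeR or DESeq2. The medians of these lists were between 0.06 and 0.14, and unadjusted p-values under 0.05 numbered 15 above 0 and 11 below 0. rpl-3 was at a log2 fold change of -0.02 (SE 0.20) and atp-2, a subunit of ATP synthase, 0.05 (SE 0.15). The SR splicing factors (rsp) had no call among 8 with either tool, with 1 unadjusted p under 0.05. ama-1, which encodes the large subunit of RNA polymerase II, had 4080, 5794 and 5188 in HS, against 7300, 6050 and 5699 in CTL (-0.34, SE 0.19, adjusted p = 0.23), and the temperatures overlapped.

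Small RNA pathway genes included 2 clear falls. alg-1, the main Argonaute of microRNAs, fell to 686, 298 and 364 in HS, against 1806, 1083 and 1322 in CTL (log2 fold change -1.64, SE 0.30, adjusted p = 0.0040). alg-2, its close homolog, had 220, 316 and 238 in HS, against 724, 590 and 602 in CTL (-1.31, SE 0.20, adjusted p = 0.0014). The temperatures did not overlap in either gene. Of 20 Argonautes 3 fell (15%) and 1 rose (5%), against 5.25% and 5.87% of all protein-coding genes tested. Beside alg-1 and alg-2 these were sago-2 (-1.19), which binds secondary siRNAs, and alg-5 (1.07), a further microRNA Argonaute. The sago-2 and alg-5 calls were kept in 2 and 3 of the 6 fits without 1 library.

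Metabolic genes moved in a few places. Glycolysis and gluconeogenesis (23 genes) and the TCA and glyoxylate cycles (19 genes) had no call with edgeR or DESeq2, with 10 unadjusted p-values under 0.05 above 0 and 5 below 0. Of 10 trehalose and glycerol genes 3 rose (30%, against 5.87% of all protein-coding genes tested) and none fell. tre-5, a trehalase, had 1380, 2456 and 1622 in HS, against 114, 236 and 424 in CTL (log2 fold change 2.84, SE 0.42). gpdh-1, which makes the precursor of the osmolyte glycerol, rose by 1.74, and tps-1, a trehalose-6-phosphate synthase, had 1254, 1999 and 2026 in HS, against 709, 501 and 955 in CTL (1.29, SE 0.23). Genes that build and break down fatty acids fell in places. The elongases elo-5 and elo-6, of branched-chain fatty acids, had -1.87 and -1.36. The elo-5 call was lost without HS replicate 2 or CTL replicate 1. The elo-6 call was kept in 1 of 6 fits that left out 1 library. Of 69 fatty acid breakdown genes 6 fell (8.7%) and 2 rose (2.9%), against 5.25% and 5.87% of all protein-coding genes tested. The breakdown falls were 1 without HS replicate 2, 3 without HS replicate 3 and 3 without CTL replicate 1 or 2. The breakdown rises were 0 without CTL replicate 2 and 1 without HS replicate 1.

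Detoxification genes went both ways. Of 41 glutathione S-transferases 9 rose (22%) and 2 fell (4.88%), and of 64 UDP-glucuronosyltransferases 7 rose (10.9%) and 15 fell (23.4%). Over all protein-coding genes tested 5.87% rose and 5.25% fell. Among members with a mean over 10 in CTL, 6 of 36 gst genes (16.7%) and 5 of 60 ugt genes (8.33%) rose. Past that limit 4.44% of all protein-coding genes rose. The falls were 2 of the 36 gst genes (5.56%) and 15 of the 60 ugt genes (25%), against 5.59% of all genes past the limit. gst-36 had 7579, 6283 and 6903 in HS, against 986, 1114 and 1235 in CTL (log2 fold change 2.64, SE 0.15, adjusted p = 2.1e-06), and gst-8 had 859, 305 and 482 in HS, against 8.73, 2.47 and 4.71 in CTL (6.66, SE 0.67). ugt-16 fell to 167, 46.6 and 78.9 in HS, against 1124, 684 and 176 in CTL (-2.77, SE 0.63), where CTL replicate 3 came close to HS replicate 1. The number of ugt genes that fell was 8 without HS replicate 2 and the number that rose 4 without CTL replicate 2. The 2 gst genes that fell were 0 or 1 in each fit without 1 library other than CTL replicate 3. sod-3, a manganese superoxide dismutase, had 218, 309 and 1003 in HS, against 56.2, 52.7 and 106 in CTL (2.87), with HS replicate 3 the highest, and mtl-2, a metallothionein, fell by 1.11 on the log2 scale. Of 61 cytochrome P450 genes 4 fell (6.56%) and 2 rose (3.28%), close to the shares over all protein-coding genes. cyp-35A4 had 53.7, 17.9 and 4.21 in HS, against 498, 269 and 118 in CTL (-3.56, SE 0.91), a call kept in 3 of 6 fits without 1 library. The P450 falls were 9 without HS replicate 1, 2 without HS replicate 2 or 3 and 1 without CTL replicate 1, and the rises were 1 without HS replicate 2 or any 1 CTL library.

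Immune genes went both ways by family. Lysozymes, which digest bacterial walls, fell in 4 of 12 cases (33.3%, against 5.25% of all protein-coding genes tested) and rose in none. lys-2 had 772, 561 and 614 in HS, against 2988, 3282 and 4436 in CTL (log2 fold change -2.46, SE 0.28, adjusted p = 0.0002). Of 145 C-type lectins 15 fell (10.3%) and 5 rose (3.45%), against 5.25% and 5.87% of all protein-coding genes tested. The lectin falls ranged between 10 and 16, and the rises between 4 and 7, in fits that left out 1 library. clec-10 had 131, 270 and 143 in HS, against 881, 1282 and 1494 in CTL (-2.75, SE 0.37). The antimicrobial peptides of the epidermis, by contrast, rose in 7 of 16 cases (43.8%, against 5.87% of all protein-coding genes tested) and fell in none. Of the 14 with a mean over 10 in CTL, 5 rose (35.7%, against 4.44% of all genes past that limit). cnc-4 had 1510, 2063 and 1411 in HS, against 118, 202 and 301 in CTL (3.02, SE 0.40). nlp-29, another such peptide and a usual marker of epidermal damage, had 567, 1405 and 1023 in HS, against 234, 266 and 421 in CTL (1.71, SE 0.38). Of the pals genes, a family tied to the response to intracellular pathogens, 4 of 21 tested rose (19%, against 5.87% of all protein-coding genes tested). Only 1 of these was among the 14 with a mean over 10 in CTL (7.14%, against 4.44% of all genes past that limit). The cul-6 ligase that acts in the response to intracellular pathogens had no call among 6 genes with edgeR or DESeq2. None of the 6 had an unadjusted p under 0.05.

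Signalling genes showed scattered changes. Of 26 insulin-like peptides 3 rose (11.5%) and 4 fell (15.4%), against 5.87% and 5.25% of all protein-coding genes tested. Of the 22 with a mean over 10 in CTL, 1 rose (4.55%) and 4 fell (18.2%). Past that limit 4.44% of all protein-coding genes rose and 5.59% fell, so the rises were near the share of all genes. ins-4 had 210, 659 and 398 in HS, against 24.2, 28.8 and 65.9 in CTL (log2 fold change 3.50, SE 0.49), and ins-9 fell to 0, 1.2 and 3.16 in HS, against 21.3, 25.5 and 14.1 in CTL, at least 6.00-fold lower. Without CTL replicate 1 the insulin-like falls were 2. The receptor and kinases of the insulin pathway had no call among 9 genes with either tool, with 3 unadjusted p-values under 0.05. Of 190 nuclear hormone receptors 10 rose (5.26%) and 12 fell (6.32%), shares near those of all protein-coding genes. nhr-17 had 619, 1165 and 1109 in HS, against 164, 128 and 136 in CTL (2.75). Among 24 genes of Wnt, Notch and EGF signalling 3 fell (12.5%, against 5.25% of all protein-coding genes tested) and none rose. The 3 were the Wnt ligand gene lin-44 (-1.52) and the receptor genes lin-17 (-1.18) and mig-1 (-1.18). The mig-1 call was lost without HS replicate 2, HS replicate 3 or CTL replicate 3. daf-14, a Smad of the TGF-beta pathway, rose by 1.5. atf-7, the bZIP factor below the p38 kinase pathway of immunity, had 4904, 3455 and 3533 in HS, against 1922, 1442 and 1499 in CTL (1.29, SE 0.17). Of 94 neuropeptide genes 9 fell (9.57%) and 3 rose (3.19%). The 3 that rose were nlp-28, nlp-24 and nlp-29, which are also on the list of epidermal peptides, and these were 1 without HS replicate 2, CTL replicate 1 or CTL replicate 2 and 6 without HS replicate 1. The falls were 5 without HS replicate 2 and 4 without CTL replicate 3.

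Chemoreceptor genes, which encode receptors of the kind that sensory neurons use, had more rises than falls, and most of the rises were in genes with few counts at 20°C. Of 1364 annotated genes of these families 155 were tested, of which 33 rose and 6 fell, the falls being 3 in each fit without 1 library other than HS replicate 1. Of the 77 with a mean over 10 in CTL, 4 rose and 6 fell (5.19% and 7.79%, against 4.44% and 5.59% of all genes past that limit). srt-42 had 5194, 1883 and 4405 in HS, against 6.79, 4.94 and 2.35 in CTL (log2 fold change 9.5, SE 0.59), and srt-41 had 578, 146 and 458 in HS and 0 in every CTL library, at least 95.0-fold higher. Both genes lie on the strand of, and just beyond, an hsp-16 gene: srt-41 starts 1191 bp past the end of hsp-16.2 and srt-42 1585 bp past the end of hsp-16.41. str-118 was at least 168-fold higher and srd-68 at least 45.5-fold.

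**Figure D4:**
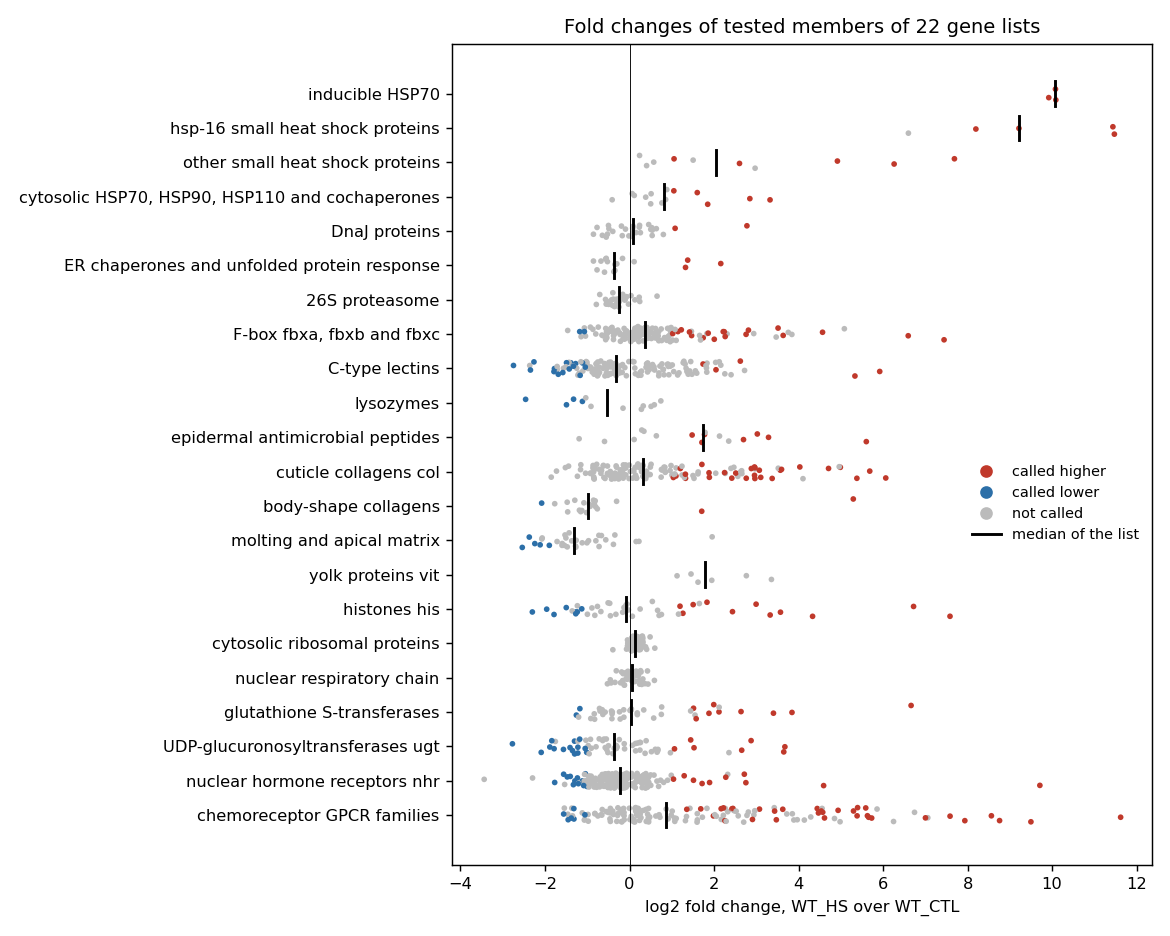
Log2 fold change of WT_HS over WT_CTL (x axis) for every tested member of 22 gene lists (y axis), with called rises in red, called falls in blue, genes not called in grey and a black line at the median of each list. The median of the inducible HSP70 list is at 10.08, that of the hsp-16 list is the fitted value of a gene with 0 counts in WT_CTL and depends on the prior count, and that of the molting and apical matrix list is at -1.32.

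This position next to a gene called higher was more general, with no limit on the upstream rise beyond the call. Among protein-coding genes that lay within 2000 bp downstream of a gene called higher, on the same strand, 80 of 299 were called higher (26.8%), against 252 of 4922 (5.12%) where the upstream gene was not called. Within 500 bp the counts were 36 of 128 (28.1%), against 102 of 2508 (4.07%). On the opposite strand within 2000 bp, 23 of 205 were called higher (11.2%), against 166 of 3156 (5.26%), and within 500 bp 6 of 101 (5.94%), against 90 of 1395 (6.45%). The difference between the strands was not tested. Examples with their gaps were otpl-4, 615 bp past his-39 and with 211, 83.7 and 166 in HS, against 0, 0.824 and 0 in CTL, and gst-8, 354 bp past gst-7. Genes of 1 operon and duplicated neighbours are included in these counts, and their part in them was not tested.

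The called genes were also unevenly placed and shaped. On the X chromosome 227 of 2110 genes fell (11%) and the median log2 fold change was -0.28, whereas on the autosomes 3.24% to 5.35% fell. Chromosome V had the highest share of genes that rose (8.09%). Genes in the shortest quartile by exonic length (867 bases or fewer) rose in 8.71% and fell in 2.72%, and those in the longest quartile (over 2008 bases) rose in 3.07% and fell in 7.35%. Genes with 1 exon block rose in 11.9%, and those with over 10 in 2.67%. The lowest quartile by level at 20°C rose in 12.8%, but that level was taken from the CTL libraries that also enter the comparison.

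Several of the largest falls lay outside the lists. W01A8.6 had 105, 71.8 and 87.3 normalized counts in HS, against 639, 1053 and 1120 in CTL (log2 fold change -3.41, SE 0.28, adjusted p = 2.1e-05). fkb-5, a peptidyl-prolyl isomerase of the secretory pathway, had 901, 234 and 817 in HS, against 8671, 4898 and 2725 in CTL (-3.06, SE 0.64). asp-13, an aspartyl protease, had 814, 712 and 620 in HS, against 6140, 4688 and 4662 in CTL (-2.85, SE 0.26). asp-13 and W01A8.6 had narrow HS groups, while in fkb-5 both groups were widely spread.

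Genes of annotated classes other than protein-coding, here called non-coding and including pseudogenes, rose far more often than they fell. Of 1272 tested, 297 were called higher (23.3%) and 14 lower (1.1%) by the same limits, 24.4% in all, and 124 of the 297 had 3 counts or fewer in every CTL library. Pseudogenes made up 607 of the 1272, with 80 higher (13.2%) and 6 lower (0.988%). Of the 793 with a mean over 10 in CTL, 104 were higher (13.1%) and 14 lower (1.77%). The 793 held 472 pseudogenes, with 40 higher (8.47%) and 6 lower (1.27%). These were total RNA libraries and not libraries of small RNAs, so reads on microRNA, piRNA and tRNA genes may come from longer transcripts, and mature small RNAs were not measured. Sums over each class do not depend on the filter. Reads on the 634 tRNA genes summed to 2586, 3253 and 2693 normalized counts in HS, against 244, 157 and 191 in CTL (14.4-fold), and were spread over 291, 303 and 274 genes in HS, against 140, 87 and 54 in CTL. Reads on 261 microRNA genes summed to 3663, 3269 and 2797 in HS, against 312, 194 and 268 in CTL (12.55-fold), and those on 15363 piRNA genes to 5350, 2541 and 4709 in HS, against 1325, 421 and 435 in CTL (5.78-fold).

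Long non-coding RNAs rose less. lincRNA genes summed to 27259, 23077 and 25011 in HS, against 9992, 11007 and 13942 in CTL (2.16-fold), and antisense RNA genes to 927, 891 and 921 in HS, against 534, 447 and 449 in CTL (1.91-fold). Counting used the strand of the reads, so an antisense gene and its partner are told apart. linc-44 (II:5781921-5782113) had 10026, 7006 and 7750 in HS, against 126, 74.1 and 84.7 in CTL (log2 fold change 6.43, SE 0.31, adjusted p = 4.6e-07). Summed snoRNA, snRNA and pseudogene counts overlapped between temperatures, and CTL replicate 3, the library with the most rRNA, was among the highest in each. Of 156 snoRNA genes tested 53 were higher and 3 lower, or 39 higher and 3 lower among those with a mean over 10 in CTL.

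Among microRNA genes, cel-mir-52 (IV:14034008-14034107) had 711, 743 and 488 normalized counts in HS, against 1.94, 1.65 and 0 in CTL, at least 156-fold higher. cel-mir-239a and cel-mir-250 were at least 74.2-fold and 47.2-fold higher. cel-mir-241, a let-7 family member of the larval timing pathway, went the other way, with 2.28, 3.59 and 4.21 in HS, against 21.3, 10.7 and 28.2 in CTL (log2 fold change -2.47, SE 0.51). Each of these 4 genes was separated between temperatures, and cel-mir-241 lay at low counts in every library.

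**Figure D5:**
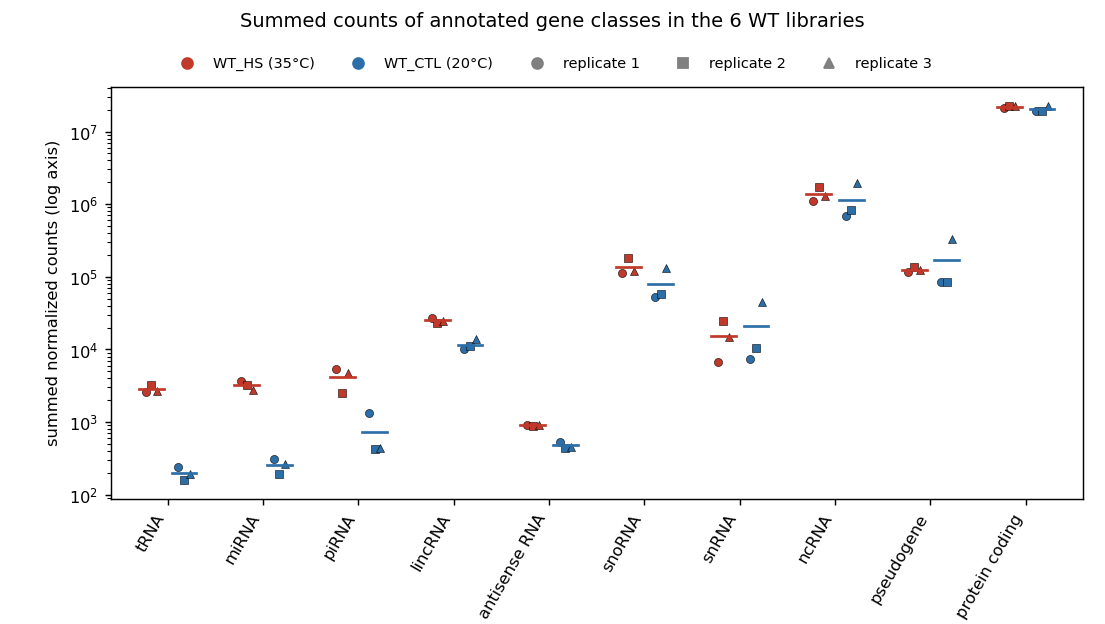
Summed normalized counts on a log axis for 10 annotated gene classes in each WT library, WT_HS in red left of WT_CTL in blue, with marker shape for the replicate and bars for the group means. The tRNA, miRNA, piRNA, lincRNA and antisense classes are separated between temperatures, and the snoRNA, snRNA, ncRNA and pseudogene sums overlap.

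The paper compared miR-85(n4117) with WT animals at each temperature, and it does not report the interaction given here. The interaction of strain and temperature had no gene at an adjusted p under 0.05 with edgeR, where 377 genes had an unadjusted p under 0.05, and DESeq2 called 1, ZC190.4. The fitted response of hsp-70 was 10.08 in WT and 6.85 in miR-85(n4117), a log2 difference of 3.23 (edgeR unadjusted p = 0.0019, adjusted p = 1.00). Each response is a ratio to CTL, so a higher CTL level in the mutant would also lower it. The paper reports more hsp-70 mRNA in the mutant than in WT without HS, and no significant difference directly after HS. The same log2 difference was 3.12 for F44E5.4, 3.04 for F44E5.5, 4.03 for hsp-16.2 and 3.98 for hsp-16.41. It was -0.24 and -0.02 for the hsp-16.48 identifiers and -0.52 for the tested hsp-16.1 identifier. The miR-85(n4117) libraries were all sequenced in lane 3 and the WT libraries in lanes 3 and 8. Strain and lane are thus partly confounded here, and a lane effect on these differences was not tested.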

How the data were processed

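The authors isolated total RNA from 3 independent replicates per group, depleted rRNA and made stranded libraries; STAR was their aligner, and featureCounts 1.6.5 gave the counts per gene. The deposited files hold raw counts of single libraries as whole numbers on Ensembl release 100 identifiers. Names, classes and WBcel235 positions came from Ensembl release 115, which held 46817 of 46904 identifiers; the other 87 were left without a class. No per-sample column was left unmapped.

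The tests used edgeR 4.0.16 in R 4.3.3 (DESeq2 1.42.0 as the alternative, which is the tool of the study). Genes were filtered with filterByExpr, normalized by TMM and fitted over all 12 libraries in 4 groups with robust quasi-likelihood dispersions, and WT HS was set against WT CTL. The SE was derived from the size of the log2 fold change and the F statistic, as their ratio after taking the root of F. p-values measure the spread between replicates, and an exact permutation test of 3 libraries against 3 cannot go below p = 0.1. Precision for low genes was limited most by CTL replicate 3. The floor was 3 counts per library, and it covers counting error only.

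The members and gene lists were chosen with earlier results of these data known. Genes named in the text are all inducible HSP70 and hsp-16 genes, the 10 largest rises and falls among calls without overlap, up to 4 calls per list and 3 per direction in each non-coding class, with hsf-1, hsb-1, daf-16, alg-1 and ama-1. Marker genes, hsp-1, hsp-17, hsp-25, hsp-3, hsp-60, noah-1, mlt-10, col-19, col-124, col-139, his-3, otpl-4 and the genes ranked by counts were added after their values had been seen. Alternatives were DESeq2, RLE and upper quartile scaling, TMM on protein-coding genes, no filter on low counts, the 6 WT libraries alone, a replicate block, the lane as a covariate, lane 8 alone, every gene class, and each library left out in turn. A search for promoter motifs was planned and not run, since no sequence was used here. The procedure was tested on simulated counts.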

Additional observations from a re-analysis of the deposited data

How the results depend on the processing

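All of the 1700 calls kept their direction under each alternative named here in which they were tested. The alternatives reuse the libraries that gave the calls, so this agreement is largely fixed in advance. The counts of genes higher and lower, 898 and 802, became 1085 and 975 with DESeq2, 890 and 820 with RLE, 869 and 814 with upper quartile scaling, 939 and 749 with TMM on protein-coding genes, 654 and 750 without a filter on low counts, 796 and 661 with the 6 WT libraries alone, 853 and 848 with the lane as a covariate, and 665 and 546 with the lane 8 libraries alone. Leaving out 1 library gave 548 to 1012 genes higher and 493 to 1002 lower. The lowest counts came without CTL replicate 2 (548 higher) and without HS replicate 2 (493 lower). Non-coding calls, 311, ranged between 252 and 353 when 1 library was left out and were 200 with lane 8 alone, a fit of fewer samples (2 libraries against 2). The median of all genes moved by less than 0.05 under any scaling. Over every gene class the counts were 1204 and 816. The interaction gave 0 genes with edgeR and 1 with DESeq2 (429 unadjusted p-values under 0.05), for which the cause was not tested.

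With the replicate number as a block within strain, 736 genes were higher and 715 lower, of which 697 and 659 were calls without the block, and in the 6 WT libraries with the block 842 and 832. Same-numbered HS and CTL libraries correlated at 0.319, 0.0987 and 0.379 in their deviations from the group means over 15744 genes, and each HS library correlated best with its own number. Same-numbered libraries also share a lane. This is a hint that the numbers pair the libraries, but 1 of the 3 correlations was under 0.1 and no source states a shared culture, so the fit without the block was kept. Of 179 called genes named by the rule, 122 were called under every alternative that could be fitted, 133 in every fit without 1 library, 38 lost the call without HS replicate 2 and 10 with the block.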

Other observations

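A few gene families outside the lists held many or several rises; they were picked out after their values had been seen, so their counts are descriptions. All 8 tested nspe genes, a family of small predicted secreted peptides, were called higher (median log2 fold change 5.44), a median of fitted values that depends on the prior count where CTL is near 0. nspe-5 had 128, 440 and 148 normalized counts in HS, against 1.94, 2.47 and 7.06 in CTL, at least 57.6-fold higher. HS replicate 2 was the highest library of nspe-5, as it was for several collagens. Of 23 fipr genes 7 rose and none fell, and of 56 transthyretin-related ttr genes 12 rose and 1 fell. Among chemoreceptors the srh genes contributed 7 rises of 18 tested. Of 12 protein-coding genes on mitochondrial DNA edgeR called 1 lower, WBGene00010963 (-1.08), and their median was -0.29.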
